A study of Mus musculus with 4 samples.

Results

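Integrins are the receptors that fix cells to the extracellular matrix and to each other. The gene set described here held 25 integrin alpha and beta subunits and 9 cytoplasmic proteins of the focal adhesion, the plaque that couples integrins to actin, which makes 34 of the 21462 genes in the deposited table. Members were taken by gene symbol from families and protein complexes, and all 34 had a mean of at least 10 normalized counts and entered the comparison. The RNA came from sorted lung smooth muscle cells of C57BL/6 mice, in 2 Tet3 mutant and 2 control libraries.

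TET3 oxidizes 5-methylcytosine in DNA to 5-hydroxymethylcytosine. By the study's methods, floxed *Tet3* was deleted with a tamoxifen-inducible Cre recombinase driven by the α-SMA promoter, which is active in smooth muscle and other α-SMA-expressing cells, and controls lacked the floxed allele but carried the Cre transgene, the tdTomato reporter at *ROSA26*, or both. Cells were enriched by depletion of CD45+ and Ter-119+ cells on beads and then sorted as DAPI-negative tdTomato+ cells, so leukocytes and erythroid cells had been selected against. The labels give neither age nor sex nor a batch, and do not say which controls carried which transgene. Since cells were sorted on tdTomato, the sorted cells carried the reporter.

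An integrin is a pair of 1 alpha and 1 beta subunit, and the pair sets the ligand: collagens, laminins, ligands with the RGD peptide such as fibronectin, latent TGF-β, or receptors on other cells. Talin and kindlin bind the beta tail and switch the receptor on, and vinculin, paxillin, integrin-linked kinase, parvin and focal adhesion kinase then assemble on it. In smooth muscle these plaques carry contractile force to the matrix, whereas the β2 and β7 integrins are used by leukocytes for adhesion and homing.

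Promoter sequence is shown for 4 members that stand for the contrasts in the set, as a description of their CG content. TET3 acts on methylated cytosine, which in mammals lies mostly in CG dinucleotides. The study found the loss of hydroxymethylated cytosine in the mutants most evident within gene bodies. For highly expressed genes of contractile proteins it reports this loss inside the gene but not at the promoter. It found methylated cytosine not significantly altered at either place. Whether loss of *Tet3* acts at the windows shown here was not tested. *Itgb7* and *Itgam* encode leukocyte subunits, *Itgb1* was the integrin of highest level per exon length, and *Vcl* encodes the focal adhesion protein vinculin. Each run is the 250 bases before the RefSeq start on GRCm38.p6, written 5′ to 3′ on the gene's strand with every CG in capitals. They lie at chr15:102231936-102232185 (minus strand), chr7:128062390-128062639 (plus), chr8:128685404-128685653 (plus) and chr14:20929148-20929397 (plus), in that order.
Itgb7: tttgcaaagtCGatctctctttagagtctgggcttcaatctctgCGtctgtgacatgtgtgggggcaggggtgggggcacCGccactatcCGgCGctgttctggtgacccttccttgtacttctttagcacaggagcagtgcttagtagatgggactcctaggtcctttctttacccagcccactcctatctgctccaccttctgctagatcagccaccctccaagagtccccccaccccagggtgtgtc
Itgam: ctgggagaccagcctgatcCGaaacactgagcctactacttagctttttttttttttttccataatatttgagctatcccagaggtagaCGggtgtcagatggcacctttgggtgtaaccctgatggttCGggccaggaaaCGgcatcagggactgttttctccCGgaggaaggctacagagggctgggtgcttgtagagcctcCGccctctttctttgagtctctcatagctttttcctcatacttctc
Itgb1: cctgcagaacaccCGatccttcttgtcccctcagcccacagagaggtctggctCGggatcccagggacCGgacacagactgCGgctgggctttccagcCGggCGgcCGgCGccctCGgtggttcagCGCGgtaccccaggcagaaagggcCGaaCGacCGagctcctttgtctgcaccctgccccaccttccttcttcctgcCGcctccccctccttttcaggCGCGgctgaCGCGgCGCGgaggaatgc
Vcl: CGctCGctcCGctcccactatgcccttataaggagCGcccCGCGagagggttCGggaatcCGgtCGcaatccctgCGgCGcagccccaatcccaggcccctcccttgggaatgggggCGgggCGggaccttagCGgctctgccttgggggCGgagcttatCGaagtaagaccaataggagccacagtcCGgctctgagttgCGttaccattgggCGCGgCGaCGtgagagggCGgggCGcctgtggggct

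The *Itgb7* and *Itgam* windows held 5 and 6 CG, and the *Itgb1* and *Vcl* windows 21 and 24. RefSeq windows were matched by symbol for 23 members, with 26 windows in all, and not for *Itgae*, *Itgal*, *Itgb2*, *Itga6*, *Itga7*, *Itgb3*, *Itgb4*, *Parva*, *Ptk2*, *Pxn* and *Tln2*. The 3 leukocyte windows, of *Itgb7*, *Itgam* and *Itgax*, held 5 or 6 CG each, and the 6 windows of the focal adhesion genes *Fermt2*, *Ilk*, *Tln1*, *Vcl* and *Zyx* held 12 to 32. Low counts were not particular to the leukocyte windows: those of *Itga10* and *Itga2b* held 2 CG each and that of *Itga4* held 6. The median was 12 CG in member windows and 14 over the 14932 windows of tested genes, of which 98.4% held at least 1 CG. Over the 300 bases that RefSeq windows span, the medians were 13 and 19. The window of *Itga9* held 10 CG and is not shown, since its RefSeq start lies 105002 bases inside the deposited gene. A CArG box, the motif of serum response factor, was found by its letters on either strand in 3 member windows, against 1.19% of all windows. They were those of *Vcl* and *Fermt2* and the second *Itgb6* window, whose RefSeq start lies 48950 bases inside the deposited gene. These are counts of letters, and no methylation was measured in these libraries.

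Values below are normalized counts, the reads per gene as the authors scaled them between libraries and rounded them, and gene positions are on GRCm38. Fold changes compare the mutants with the controls on the log2(value + 1) scale and were tested with limma, a linear model that borrows the spread across genes, and p-values were adjusted over all genes tested. Depth was alike in the 4 libraries, with 6.32 M to 7.56 M reads estimated to be assigned to genes. Normalized counts of *Tet3* were 1847 and 1926 in the controls, replicate 1 first here and throughout, and 1534 and 1444 in the mutants, a log2 fold change of -0.34 at an adjusted p of 0.681 (limma), so the targeted gene was lower in both mutants and did not pass the test. Control replicate 2 stood apart from the other libraries: it lay farthest from the median of the other 3 in 44.9% of genes, against 18.2% for control replicate 1 and 17.1% and 19.8% for the mutants, and had 2 normalized counts of *Xist* and 774 of the Y-linked *Ddx3y*, where the other libraries had at least 5214 and 0. By these genes control replicate 2 was male and the other libraries were female. Sex thus differed within the controls, and its part in the fold changes was not tested. Smooth muscle markers were present in every library, *Acta2* at a mean of 404 and *Myh11* at 275 normalized counts per kb of exon. The defining markers of endothelium, epithelium, fibroblasts and leukocytes were present too, with *Cdh5* at 532, *Sftpc* at 910, *Pdgfra* at 472 and *Ptprc* at 110 per kb, so the libraries held RNA from cells beyond smooth muscle. These levels depend on the length used. Per kb of the longest transcript *Ptprc* was at 351, beside *Acta2* at 436, *Myh11* at 319, *Cdh5* at 560, *Sftpc* at 1188 and *Pdgfra* at 692. No listed marker gene with a value in the table was at 0 in any library.

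Levels were compared between members as normalized counts per kb of union exon, averaged over the 4 libraries. *Itgb1*, the β1 subunit shared by most matrix receptors, was highest at 609 ± 24.8 (SD, n = 4 libraries), above 99.7% of all tested genes. *Itga8*, the α8 subunit that pairs with β1 to bind nephronectin and fibronectin, followed at 501 ± 43.9, and *Tln1*, which encodes talin 1, at 494 ± 21.1. Their order was only partly separated: every library of *Itgb1* lay above every library of *Itga8*, while *Itga8* and *Tln1* overlapped, and every library of *Tln1* lay above those of *Vcl*, the next gene. Per kb of the longest transcript these separations were lost, with *Itgb1* at 636 to 691 against *Itga8* at 572 to 707, and *Tln1* at 556 to 611 against *Vcl* at 503 to 629.

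Below these came a second tier between 304 and 357 per kb, formed by *Vcl*, *Itgb5*, *Itgb2*, *Zyx*, *Ilk*, *Itga9* and *Fermt2*, whose neighbours overlapped throughout. The leukocyte β2 subunit *Itgb2*, at 340 ± 69.0, thus stood within the range of the plaque proteins. *Itga3* headed the next tier at 186 per kb, and its highest library was below the lowest of *Fermt2*, though per longest transcript it ranked 17 in place of 11. From there the levels ran down without a gap to *Itgb6* at 13.5 and *Itga10* at 8.39. In the whole order, 30 of 33 neighbouring pairs had overlapping libraries, so most adjacent ranks are not distinguished. Per kb of the longest transcript the second tier broke up. *Zyx* at 568 and *Vcl* at 556 then stood beside *Tln1* at 577, with *Fermt2* at 479, *Itgb2* at 350 and *Itga9* at 339.

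**Figure D1:**
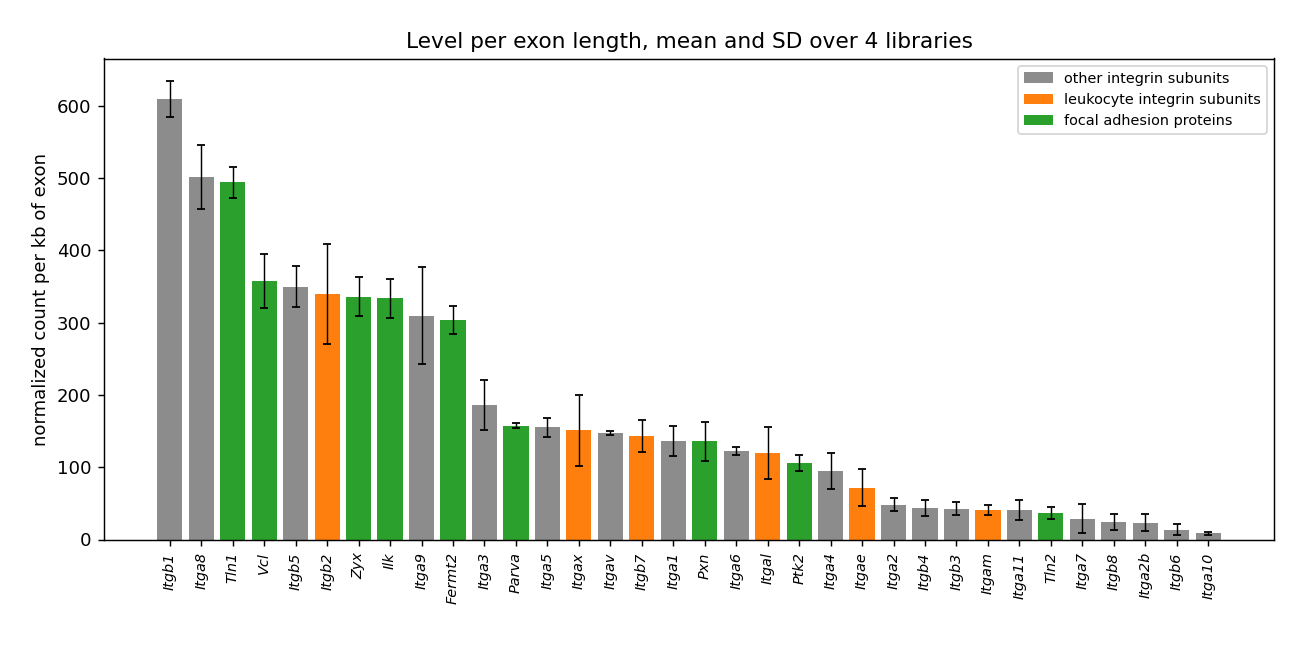
Normalized count per kb of exon (vertical axis) of the 34 members, ordered by level; bars are the mean and error lines the SD over the 4 libraries, coloured by kind of gene. Itgb1, Itga8 and Tln1 stand above the rest at 494 to 609 per kb, and the leukocyte subunit Itgb2 lies among the focal adhesion proteins.

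Some of these levels depend on how shared exon sequence was counted. Of the exon length of *Ilk*, 76.7% lies opposite exons of *Taf10* and 12.9% opposite *Rrp8*, and 25.5% of *Vcl* lies opposite *Ap3m1*. Since the sources do not say whether counting used strand, reads of these genes and of their partners could be lost or mixed, and their levels are uncertain. On the same strand, 68.7% of *Itgam* exon length is shared with the gene model Gm49368 and 33.5% of *Itga10* with Gm42957. Reads on several genes had been excluded, so *Itgam* and *Itga10* may be counted low.

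The question of the comparison was how loss of *Tet3* in smooth muscle changed gene expression, here at the receptors and plaques that attach the cell. None of the 34 members passed an adjusted p under 0.05 in limma, and 0% of the 16659 genes tested passed it. At an unadjusted p under 0.05 there were 3 members, *Itgae* and *Itgb7* higher and *Itga9* lower in the mutants, which is 8.82% of members beside 6.68% of all genes. By direction the members counted were 2 higher and 1 lower, where 3.83% and 2.85% of all genes were counted. These shares are near the background and say nothing particular about the members.

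In 13 members the mutant and control libraries did not overlap, 11 higher and 2 lower in the mutants. Over all genes 39% did not overlap, 19.6% higher and 19.5% lower. All 13 were integrin subunits, of which there were 25, and none was among the 9 focal adhesion genes. The log2 fold change was above 0 in 22 of 34 members, against 49% of all genes, and its median was 0.18 over integrin subunits, -0.05 over focal adhesion genes and -0.01 over all genes.

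The controls differed from each other by more than the group means did in 24 of 34 members, against 62.6% of all genes. Control replicate 2 was the farthest library in 16 members, a share close to the 44.9% found over all genes. Without that library the log2 fold change was 1.21 for *Itgae*, 0.43 for *Itgb7*, 0.81 for *Itgb4* and -0.31 for *Itga9*. Without control replicate 1 it was 0.51, 0.35, 0.11 and -0.62, in that order. The number of members and of all genes at an unadjusted p under 0.05 depended on which library was left out. Such fits rest on 1 library in a group, so their counts are not compared.

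**Figure D2:**
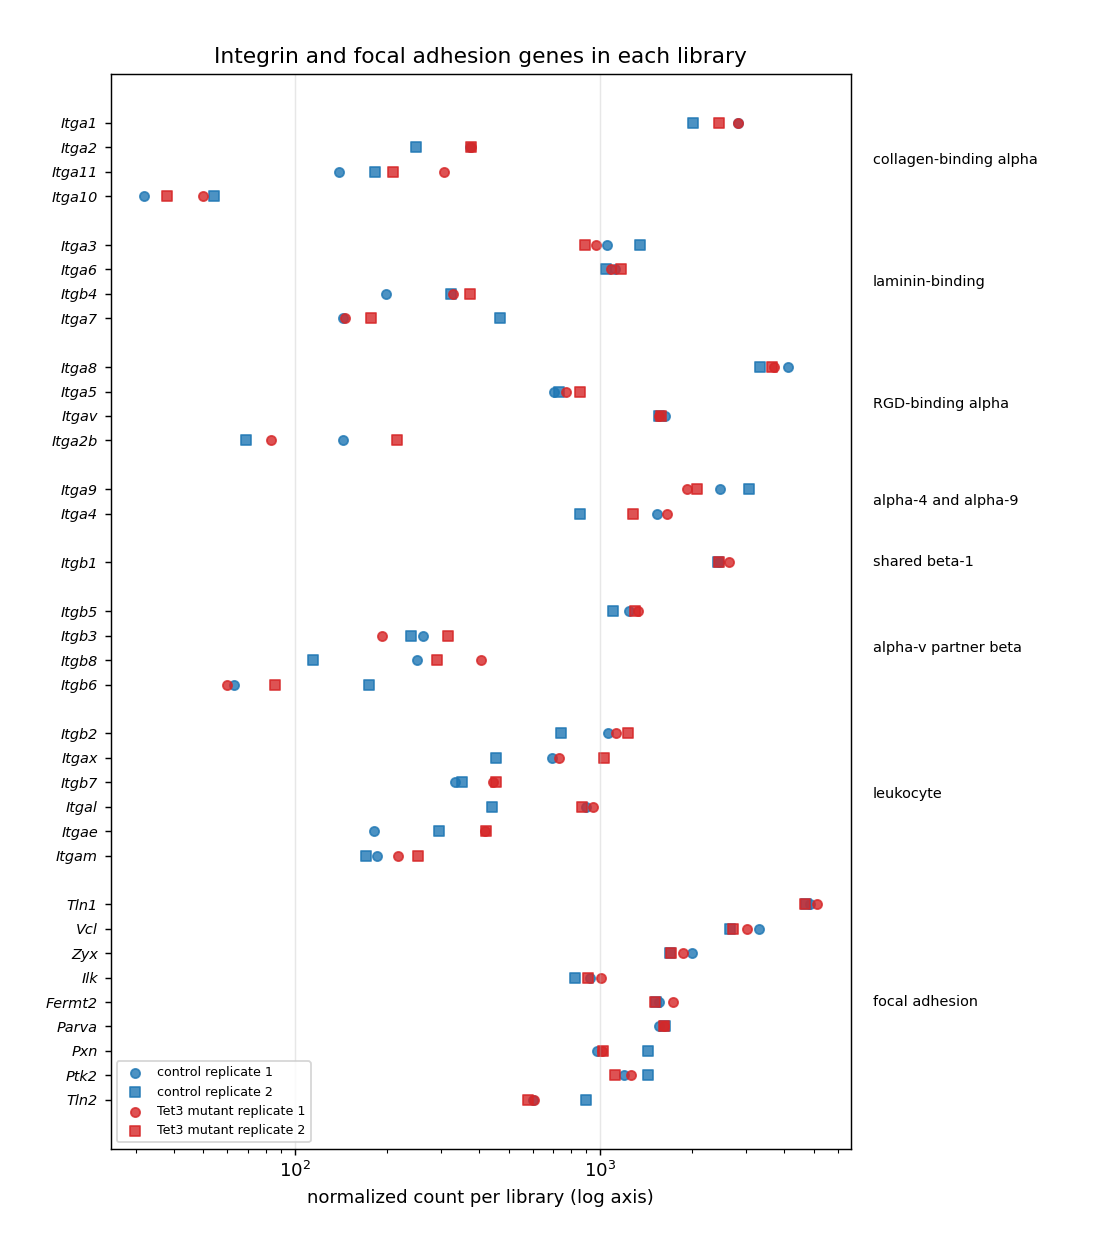
Normalized count of each member in each of the 4 libraries on a log axis, grouped by role, with controls in blue and Tet3 mutants in red. Both mutant points lie right of both control points for 5 of 6 leukocyte subunits, while the colours are interleaved for all 9 focal adhesion genes.

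The leukocyte subunits were the role in which the mutants stood above the controls most often. All 6 had a log2 fold change above 0, with a median of 0.47, and in 5 of 6 the libraries did not overlap. Over all genes 49% were above 0 and 19.6% were higher without overlap. *Itgae* (chromosome 11, 73090583 to 73147446), the αE subunit that marks lung-resident T cells and some dendritic cells, had 181 and 295 normalized counts in the controls and 417 and 423 in the mutants. Both mutants were above both controls, and the mutants were almost equal while the controls were not. The log2 fold change, given with its standard error (SE), came to 0.86 ± 0.26, at an unadjusted p of 0.0195 and an adjusted p of 0.681.

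*Itgb7* (chromosome 15, 102215995 to 102231944), the β7 partner of αE, had 333 and 353 normalized counts in the controls and 445 and 455 in the mutants. The pairs were tight in both groups and did not overlap. This gave a log2 fold change of 0.39 ± 0.12 (SE), at an unadjusted p of 0.0236 and an adjusted p of 0.681. The ratio of *Itgae* to *Itgb7* normalized counts was 0.544 and 0.836 in the controls and 0.937 and 0.93 in the mutants, so both subunits were higher in the mutants but not in a fixed proportion. *Cdh1*, which encodes their ligand E-cadherin, had 1431 and 2612 in the controls and 1157 and 1478 in the mutants, with overlap.

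The β2 family is shared by most leukocytes. *Itgb2* had 1061 and 740 normalized counts in the controls and 1123 and 1229 in the mutants, with control replicate 2 low and no overlap. This gave a log2 fold change of 0.41 ± 0.19 (SE), at an unadjusted p of 0.0898 and an adjusted p of 0.681, and without control replicate 2 it was 0.15. *Itgax*, the CD11c subunit of macrophages and dendritic cells, had 696 and 454 in the controls and 729 and 1030 in the mutants. The mutants were above, but mutant replicate 1 exceeded control replicate 1 by little.

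*Itgam*, the CD11b subunit of myeloid cells, had 185 and 170 normalized counts in the controls and 217 and 252 in the mutants, again without overlap. *Itgal*, the LFA-1 subunit of lymphocytes, had 899 and 440 in the controls and 942 and 873 in the mutants. It was the leukocyte subunit whose libraries overlapped, since control replicate 1 lay between the mutants. The ratio of *Itgam* to *Itgb2* ran from 0.174 to 0.23 over the 4 libraries, and that of *Itgal* to *Itgb2* from 0.595 to 0.847.

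Markers of leukocytes differed between the libraries as well. The 6 leukocyte integrins summed to 3355 and 2452 normalized counts in the controls and 3873 and 4262 in the mutants. The 8 pan-leukocyte markers, *Ptprc*, *Coro1a* and *Lcp1* among them, summed to 6559 and 5280 in the controls and 7233 and 7048 in the mutants, and 7 of 8 were above 0 in log2 fold change. All 10 macrophage markers were above 0, and summed to 6840 and 5762 in the controls and 7346 and 8644 in the mutants. All 7 neutrophil markers tested were above 0 too, with sums of 1062 and 818 in the controls and 1946 and 1332 in the mutants.

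T cell markers, such as *Cd3e* and *Trac*, summed to 790 and 228 in the controls and 846 and 877 in the mutants, so control replicate 2 was low and the remaining libraries were close. *Itgae* was not lowest in that library. In each of the macrophage, neutrophil, T cell and pan-leukocyte sums both mutants exceeded both controls, as in the sum of the integrins. The part of these markers in the leukocyte integrin values was not tested. In RNA from many cells, more cells of a type and more RNA per cell cannot be told apart. The study reports macrophage-enriched genes such as *Cd68* and *Adgre1* as raised in the mutant smooth muscle cells. It proposes that these cells gained macrophage-like properties, which was not tested here. Its calls came from DESeq2, which was not run here.

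A single subunit was lower in the mutants at an unadjusted p under 0.05. *Itga9* (chromosome 9, 118606690 to 118901003) encodes α9, which pairs with β1 and binds tenascin C and VCAM1. It had 2473 and 3067 normalized counts in the controls and 1914 and 2066 in the mutants, so both mutants were below both controls and control replicate 2 was highest. The log2 fold change came to -0.47 ± 0.14 (SE), at an unadjusted p of 0.0196 and an adjusted p of 0.681. The unadjusted p was 0.0612 without the mean-variance trend, 0.0504 without control replicate 2, and 0.144 and 0.0871 without Tet3 mutant replicates 1 and 2.

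The ratio of *Itga9* to its β1 partner *Itgb1* was 1.01 and 1.26 in the controls and 0.726 and 0.848 in the mutants. *Itgb1* varied little, so this ratio mostly restates the *Itga9* values. Of the α9 ligands, *Tnc* had 1977 and 676 normalized counts in the controls and 1428 and 1900 in the mutants, a wide spread between the controls. *Vcam1* had 1793 and 1214 in the controls and 1961 and 1855 in the mutants. *Itga4*, the α4 subunit that also binds VCAM1 and pairs with β1 or β7, had 1537 and 857 in the controls and 1646 and 1278 in the mutants, with overlap.

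The groups overlapped for the shared β1 subunit. *Itgb1* (chromosome 8, 128685654 to 128733200) had 2444 and 2425 normalized counts in the controls and 2637 and 2437 in the mutants. Mutant replicate 1 was slightly above the other libraries, which were almost equal. The log2 fold change came to 0.06 ± 0.10 (SE) with a 95% interval of -0.20 to 0.32, at an adjusted p of 0.887.

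All 4 collagen-binding alpha subunits had a log2 fold change above 0, with a median of 0.22. *Itga1*, the α1 subunit for collagen IV and the highest of these per exon length, had 2813 and 2010 normalized counts in the controls and 2823 and 2451 in the mutants. The libraries overlapped, and the log2 fold change came to 0.15 ± 0.19 (SE), at an adjusted p of 0.843. *Itga11*, the α11 subunit of fibroblasts that binds fibrillar collagen, had 139 and 183 in the controls and 308 and 209 in the mutants. It was higher in both mutants, with a log2 fold change of 0.67 and an unadjusted p of 0.0517, and the value was 0.39 without Tet3 mutant replicate 1.

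*Itga2*, the α2 collagen receptor, had 374 and 249 normalized counts in the controls and 376 and 377 in the mutants. Its libraries do not overlap only because control replicate 1 falls short by 2 normalized counts. *Itga10*, the α10 subunit of cartilage, was near the bottom with 32 and 54 in the controls and 50 and 38 in the mutants. For comparison, the 8 fibroblast markers summed to 11695 and 9710 in the controls and 11873 and 11232 in the mutants, and the 6 pericyte markers to 4498 and 4725 and to 6371 and 5499. Endothelial markers summed to 11238 and 9950 in the controls and to 11588 and 10677 in the mutants. The part of these cell types in the *Itga11* value was not tested.

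The laminin-binding subunits pointed in both directions, with a median of -0.15 that turned to 0.0879 without control replicate 2. *Itga3*, the α3 subunit for laminins of the basement membrane, had 1054 and 1346 normalized counts in the controls and 965 and 889 in the mutants. Both mutants were below both controls, by a log2 fold change of -0.36 ± 0.15 (SE), at an unadjusted p of 0.0619 and an adjusted p of 0.681, and without control replicate 2 it was -0.19. *Itgb4*, the hemidesmosome subunit that pairs with α6, had 199 and 324 in the controls and 328 and 373 in the mutants. Control replicate 2 and mutant replicate 1 were nearly equal, so this separation was narrow.

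*Itga6* varied little, with 1118 and 1041 normalized counts in the controls and 1084 and 1166 in the mutants. *Itga7*, the laminin receptor of muscle, had 143 and 470 in the controls and 146 and 177 in the mutants. The log2 fold change, -0.69, rested on control replicate 2 alone, and without that library it was 0.17. *Lama5*, the laminin α5 chain that α3 and α6 integrins bind, had 1769 and 2496 in the controls and 1380 and 1266 in the mutants, with no overlap, and *Lama3* had 387 and 1524 and then 336 and 407.

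Of 10 epithelial markers, 7 were highest in control replicate 2. *Scgb1a1* and *Hopx* were lowest there, at 244 and 215 normalized counts, and *Foxj1*, a gene of ciliated cells, was higher in both mutants. The 10 epithelial markers, including *Epcam*, *Sftpc* and *Ager*, summed to 5496 and 8786 normalized counts in the controls and 4965 and 5886 in the mutants. *Itgb6*, the β6 subunit of epithelium that activates latent TGF-β with αv, had 63 and 175 in the controls and 60 and 86 in the mutants, in the same order of libraries as the epithelial sum. *Itga3*, *Itga7* and *Lama3* were highest in control replicate 2 as well, which was the farthest library in 44.9% of all genes. *Itgb4* and *Itga6* were not, at 324 and 1041 there against 373 and 1166 in mutant replicate 2, their highest library. The part of epithelial RNA in these values was not tested.

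For the RGD-binding alpha subunits the median fold change was 0.08 on the log2 scale. *Itga8* (chromosome 2, 12106632 to 12301922), the highest, had 4108 and 3322 normalized counts in the controls and 3712 and 3635 in the mutants, so both mutants lay between the controls. This gave a log2 fold change of -0.01 ± 0.14 (SE) and a 95% interval of -0.36 to 0.34, at an adjusted p of 0.992, and the value turned to 0.0028 with TMM factors and to 0.04 with equal library totals. *Npnt*, the gene of its ligand nephronectin, had 3528 and 3258 in the controls and 3391 and 3144 in the mutants.

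*Itgav*, the αv subunit, was the steadiest of this role with 1624 and 1558 normalized counts in the controls and 1557 and 1578 in the mutants. *Itga5*, the fibronectin receptor, had 707 and 729 in the controls and 769 and 858 in the mutants, with no overlap and a log2 fold change of 0.18 at an unadjusted p of 0.178. *Fn1*, the fibronectin gene, had 6556 and 5741 in the controls and 6466 and 5941 in the mutants, with overlap.

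*Itga2b*, the platelet subunit αIIb, had 143 and 69 normalized counts in the controls and 83 and 216 in the mutants. Each group held 1 high and 1 low library, and the differences within both groups exceeded the log2 fold change of 0.43. The 7 platelet markers measured summed to 312 and 167 in the controls and 186 and 428 in the mutants, in the same order of libraries as *Itga2b*, and 3 of them, *Treml1*, *Gp1ba* and *Gp9*, had means under 10. The defining *Pf4* had 134, 123, 133 and 192 normalized counts and *Ppbp* 81, 20, 25 and 109, controls first. The part of platelet RNA was not tested. *Itgb3*, which pairs with αIIb on platelets and with αv elsewhere, had 262 and 239 in the controls and 192 and 316 in the mutants.

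**Figure D3:**
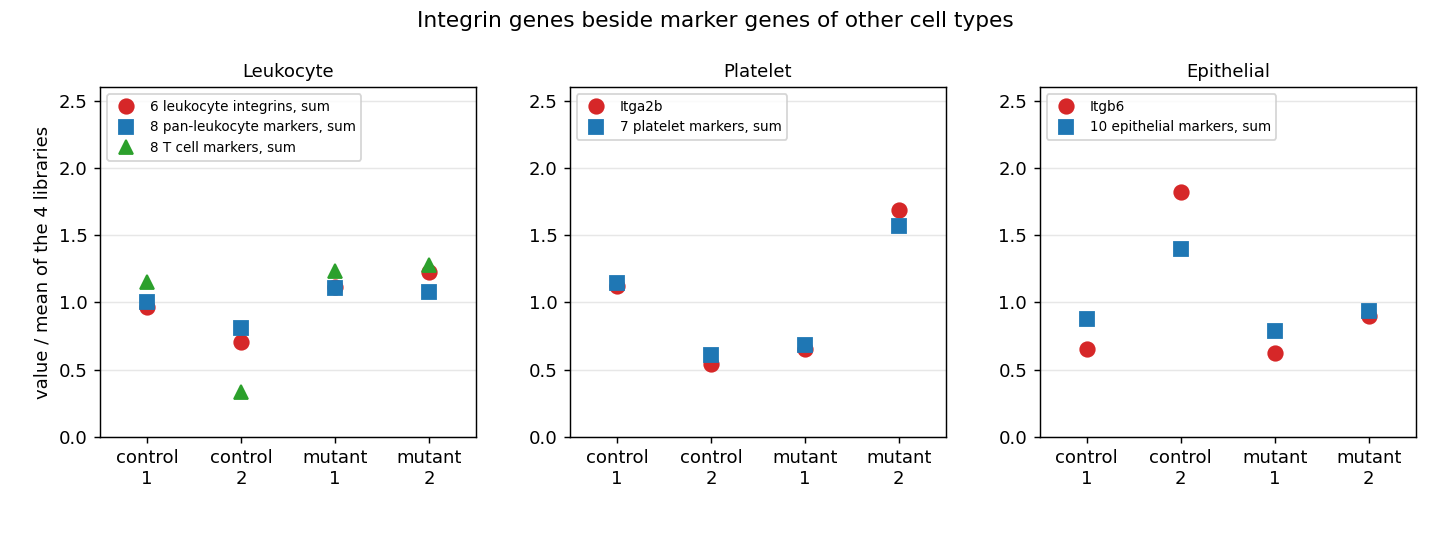
Values of integrin genes and summed marker genes in each library (horizontal axis), each divided by its own mean over the 4 libraries (vertical axis), in panels for leukocyte, platelet and epithelial genes. Itga2b and the platelet sum are high in control replicate 1 and mutant replicate 2, and Itgb6 and the epithelial sum are highest in control replicate 2.

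The β partners of αv included the member with the largest fold change, and their median was 0.07 on the log2 scale. *Itgb8* (chromosome 12, 119158022 to 119238802), the β8 subunit through which αv activates latent TGF-β, had 250 and 114 normalized counts in the controls and 407 and 291 in the mutants. Both mutants were above both controls, but the controls differed from each other by 1.13 on the log2 scale, more than the groups did. The log2 fold change came to 1.02 ± 0.41 (SE), at an unadjusted p of 0.0540 and an adjusted p of 0.681. *Itgb5*, the β5 subunit and the highest of the αv partners per exon length, had 1240 and 1101 in the controls and 1332 and 1300 in the mutants, a log2 fold change of 0.17 ± 0.11 (SE) at an adjusted p of 0.710.

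Latent TGF-β is the ligand of αvβ8 and αvβ6. *Tgfb3* had 1013 and 910 normalized counts in the controls and 1262 and 1203 in the mutants, without overlap, at a log2 fold change of 0.36 and an unadjusted p of 0.0222. *Tgfb1* had 644 and 567 in the controls and 579 and 698 in the mutants. *Ltbp1*, which encodes the latent TGF-β binding protein, had 2817 and 1946 in the controls and 2685 and 2505 in the mutants.

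The 9 focal adhesion genes showed no separation of the groups, and in 8 of 9 the controls differed by more than the groups. Their summed level was 16971 and 16791 normalized counts in the controls and 17229 and 15839 in the mutants. *Tln1* (chromosome 4, 43531519 to 43562691), which activates integrins, had 4852 and 4723 in the controls and 5129 and 4665 in the mutants, with the mutants on either side of the controls. This gave a log2 fold change of 0.03 ± 0.11 (SE) and a 95% interval of -0.24 to 0.31, at an adjusted p of 0.947. The study names focal adhesion among the pathways of genes it calls spuriously transcribed, from start-site, polymerase and exon data. Values summed over a whole gene do not show where transcription begins or whether transcripts are full-length. That finding was therefore not tested here.

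*Vcl*, the vinculin gene that reinforces talin's hold on actin, had 3314 and 2647 normalized counts in the controls and 3026 and 2718 in the mutants, both inside the range of the controls. *Zyx*, encoding zyxin of strained actin fibres, had 1998 and 1687 in the controls and 1861 and 1700 in the mutants, also inside. *Fermt2*, the kindlin-2 gene, had 1559 and 1518 in the controls and 1723 and 1510 in the mutants. These are the integrin activators and actin linkers, and none of their groups separated.

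Among the signalling adaptors, *Ilk*, integrin-linked kinase, had 924 and 824 normalized counts in the controls and 1004 and 911 in the mutants, and its partner *Parva* had 1550 and 1623 and then 1612 and 1619. *Parva* was almost constant over the libraries. *Pxn*, paxillin, had 974 and 1436 in the controls and 1014 and 1022 in the mutants, and *Tln2*, the talin of muscle and brain, had 603 and 899 and then 604 and 577.

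*Ptk2*, focal adhesion kinase, had 1197 and 1434 normalized counts in the controls and 1256 and 1117 in the mutants. *Pxn*, *Tln2* and *Ptk2* were each highest in control replicate 2, and for *Pxn* the other 3 libraries spanned only 974 to 1022. Without that library the log2 fold change of *Pxn* was 0.06.

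**Figure D4:**
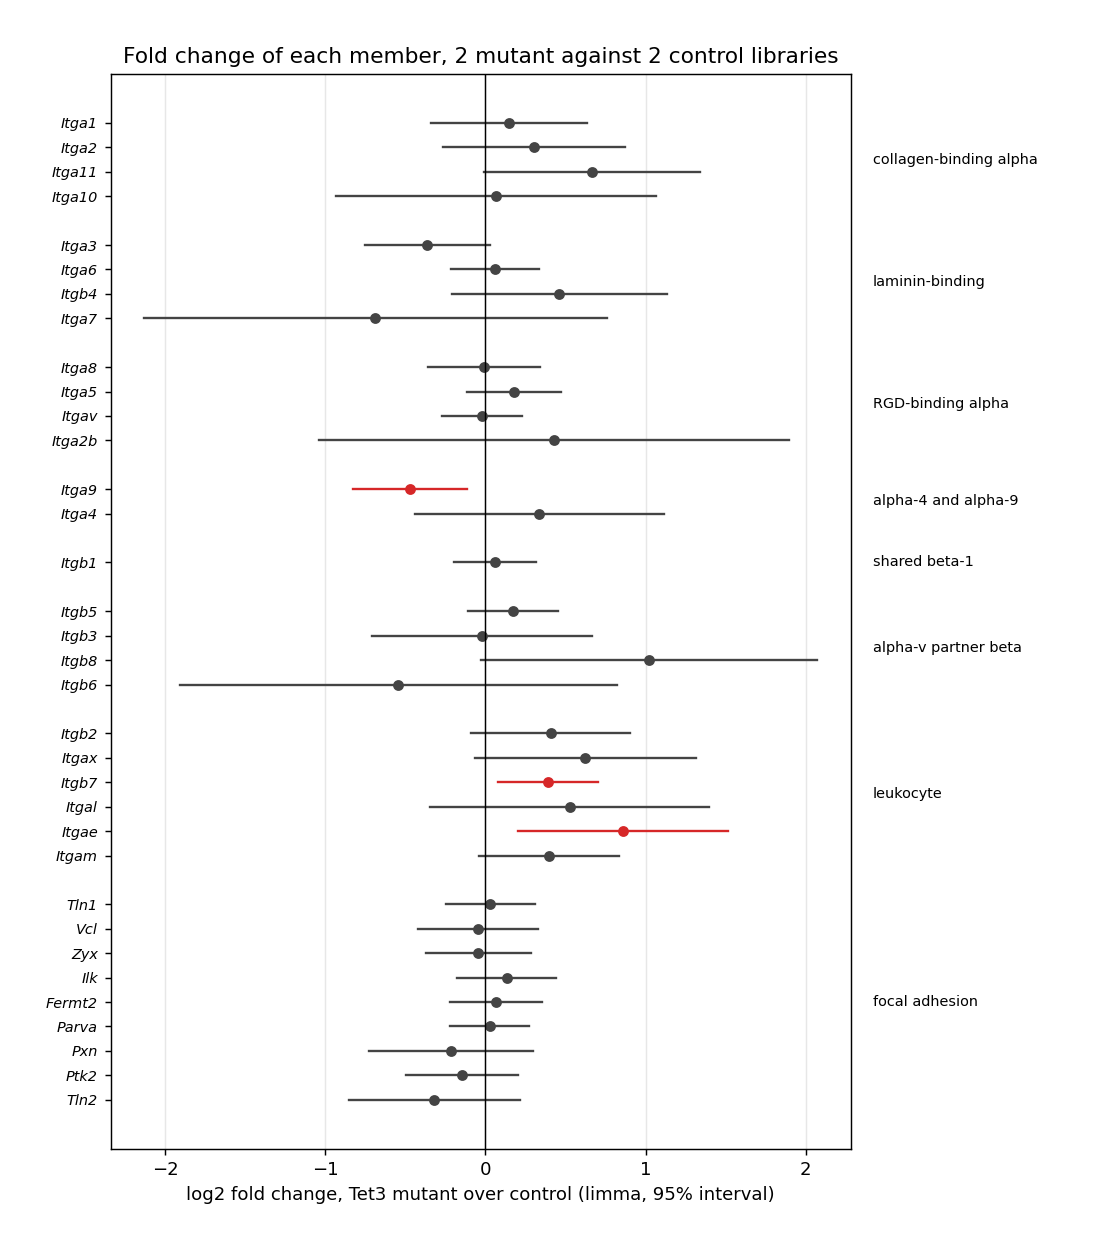
Log2 fold change of each member, Tet3 mutant over control, with the 95% interval from limma, grouped by role; members at an unadjusted p under 0.05 are red. The intervals of Itgae, Itgb7 and Itga9 lie off 0, those of the 9 focal adhesion genes all span 0, and none of the 34 passed after adjustment.

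Beyond the members, 56 other genes of the adhesion plaque were followed. None passed the adjusted test, 4 had an unadjusted p under 0.05, all higher in the mutants, and the groups did not overlap in 21 higher and 7 lower. The share at an unadjusted p under 0.05 was 7.14%, near the 6.68% of all genes, of which 19.6% and 19.5% were higher and lower without overlap. The median log2 fold change was 0.06. *Fermt1*, the kindlin of epithelia, had the smallest p of these, 0.0198, at 27 and 16 normalized counts in the controls and 59 and 49 in the mutants, and its mean was under 50. Of the 6 with the smallest p among genes without overlap and with a mean of at least 50, *Pdlim7* and *Pdlim5* encode LIM proteins of actin fibres. *Pdlim7* had 472 and 418 normalized counts in the controls and 605 and 572 in the mutants, and *Pdlim5* had 837 and 738 and then 971 and 982. Both were higher in both mutants, and so were the smooth muscle markers in sum, at 10762 and 11305 in the controls and 12895 and 11870 in the mutants. Of the 10 smooth muscle markers, 9 had a log2 fold change above 0 and 6 did not overlap, while *Mylk* was at -0.11. The part of those markers in the *Pdlim7* and *Pdlim5* values was not tested. The study reports more reads of contractile genes such as *Acta2* and *Cnn1* in the mutants. It found less full-length mRNA of such genes, and less α-SMA and MYH11 protein, which these values do not measure.

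*Arhgef6*, a Rac exchange factor that binds parvin, had 839 and 890 normalized counts in the controls and 1109 and 1035 in the mutants. *Parvg* and *Fermt3* are the parvin and kindlin of blood cells: *Parvg* had 181 and 117 in the controls and 211 and 253 in the mutants, and *Fermt3* had 563 and 389 and then 621 and 693. They stood in the same direction as the leukocyte subunits. *Bcar3*, an adaptor of the Cas proteins, had 271 and 196 in the controls and 315 and 329 in the mutants, without overlap.

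Of the 29 ligand genes tested, none passed the adjusted test and 3 had an unadjusted p under 0.05, 2 higher and 1 lower, and 20 had a log2 fold change above 0, with a median of 0.11. The shares over all genes were 6.68% at that p and 49% above 0, and 10.3% of the ligand genes had such a p. *Lama5*, given above, was the one lower, at a log2 fold change of -0.67 and an unadjusted p of 0.0153. *Postn*, the gene of periostin, which αv integrins bind, had 723 and 1109 normalized counts in the controls and 1514 and 1168 in the mutants. *Thbs1*, the thrombospondin gene, had 3418 and 3387 in the controls and 3941 and 3710 in the mutants. Both were higher in both mutants, *Postn* by a narrow margin over control replicate 2.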

How the data were processed

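RNA-seq was made from sorted lung smooth muscle cells in 4 libraries. Per the study's methods and the submitters' processing notes, ribosomal RNA was depleted, stranded single-end libraries were sequenced, and reads were checked with FastQC, trimmed with Trimmomatic 0.36, aligned with STAR 2.6.0c to GRCm38 and counted with featureCounts of Subread 1.6.0, excluding reads on several genes or places. The use of strand is not given in the sources used here. The deposited values are a score: gene counts that the authors scaled with DESeq2 and rounded to whole numbers. Since they are not raw counts, no count test was run.

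Groups came from the genotype labels. log2(value + 1), which understates changes of low genes, was fitted with limma 3.58.1 (eBayes with trend) in R 4.3.3 for genes with a mean of at least 10, with Benjamini-Hochberg adjustment over the 16659 genes and a threshold of 0.05. The code was tested on simulated data. With 2 libraries per group an exact permutation test cannot go below 0.333. Depth was estimated from gaps among low values, and precision covers counting error only. The methods call replicates independent animals; the labels do not, and p-values then measure the spread between libraries. Intervals per gene are those of limma. Exon lengths came from GENCODE on the same build and promoters from RefSeq GRCm38.p6.

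All members were followed, with full statistics for those at an unadjusted p under 0.05 and for the highest per exon length in each role. The plaque and ligand lists gave up to 6 genes each, those of smallest p with non-overlapping groups and a mean not under 50. Ligands of named integrins outside that rule were picked with their values in view. Members and lists were chosen with earlier results of these data known. Alternatives were a pseudocount of 0.5 or 8, a minimum mean of 1 or 50, TMM (trimmed mean of M values) factors, equal library totals, no trend, a replicate block, and each library left out. For the levels, the longest transcript replaced union exon length.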

Additional observations from a re-analysis of the deposited data

How the results depend on the processing

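No member passed the adjusted threshold in the fit or under any of the 12 alternatives, and the smallest adjusted p of a member was 0.205. Over all genes 0 were called, and 1 without the mean-variance trend. Of the members, 19 kept their direction whichever library was left out, and 15 did not: *Itga1*, *Itga2b*, *Itga4*, *Itga7*, *Itga8*, *Itga10*, *Itgav*, *Itgb3*, *Itgb6*, *Tln1*, *Vcl*, *Parva*, *Pxn*, *Zyx* and *Fermt2*. Equal library totals turned *Itga8* to 0.0403, *Itgav* to 0.0273, *Itgb3* to 0.0258, *Vcl* to 0.0020 and *Zyx* to 0.0028, and TMM factors turned *Itga8* to 0.0028. By construction, equal totals moved the median of all genes to 0.04. With each library left out, log2 fold changes of these ran from -0.10 to 0.39 for *Itga1*, -0.26 to 1.11 for *Itga2b*, -0.0836 to 0.76 for *Itga4*, -1.54 to 0.17 for *Itga7*, -0.16 to 0.14 for *Itga8*, -0.30 to 0.43 for *Itga10*, -0.0511 to 0.0087 for *Itgav*, -0.38 to 0.34 for *Itgb3*, -1.27 to 0.19 for *Itgb6*, -0.0373 to 0.10 for *Tln1*, -0.21 to 0.12 for *Vcl*, -0.0067 to 0.0597 for *Parva*, -0.50 to 0.0637 for *Pxn*, -0.17 to 0.0763 for *Zyx*, -0.0268 to 0.16 for *Fermt2*.

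The members at an unadjusted p under 0.05 numbered 3, 5 with equal totals, and 0 to 15 with a library left out: 15 without control replicate 1, 0 without either mutant. For all genes the count was 1112, and 273 to 3366 with a library left out (3366 without control replicate 1, 273 and 414 without Tet3 mutant replicates 1 and 2). *Itga9* ranged from -0.62 to -0.31, *Itgae* from 0.51 to 1.21, *Itgb7* from 0.35 to 0.43 and *Itgb8* from 0.46 to 1.59, and the causes were not tested. Leaving out a library shrank the fold change of 16 of the 19 members that kept direction by over 1.5 times. Where a library is left out, the lone sample of its group is assumed to vary like the other group. Median log2 fold changes ranged from 0.17 to 0.43 for collagen-binding subunits, -0.21 to 0.0879 for laminin-binding subunits, -0.072 to 0.15 for RGD-binding subunits, -0.10 to 0.24 for αv partners and -0.11 to 0.0506 for focal adhesion genes. Without control replicate 2 the leukocyte subunits *Itgal*, *Itgb2*, *Itgax* and *Itgam* shrank to 0.01, 0.15, 0.32 and 0.34. *Itgb7* and *Itgae* rose to 0.43 and 1.21 in that fit. The adhesion plaque median was 0.11 with equal totals. Per longest transcript, the 10 members of highest level were the same in another order, and promoter windows of 300 bases, tried after the data were seen, gave median CG of 13 for members and 19 for all.

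Replicate numbers appear in both groups, but nothing says they pair animals. With 2 pairs, the deviations of same-numbered libraries correlated at 0.13 (Pearson, over 16659 genes). With the number as a replicate block, 0 members and 0 genes were called, 4 members and 1637 genes had an unadjusted p under 0.05, and *Itgb8* had an unadjusted p of 0.00632 and an adjusted p of 0.357.

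*Itga10*, at 32 to 54 normalized counts, is the member least precisely counted.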
